A study of Homo sapiens with 4 samples.

Results

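Wnt signalling is held in check at several levels, and the genes described here are 10 of its antagonists: DACT3, DACT1, DACT2, DKK1, DKK3, SFRP1, WIF1, AXIN2, NKD1 and NKD2. They were chosen by symbol from the annotated table of the arrays, and they account for 13 probes and 22 spots among 34755 genes and 48908 probes with a symbol. RNA was taken from SUM149 cells, an established triple-negative line from an inflammatory breast cancer (IBC), left untreated or exposed to 2.5 uM ACY1215 (Ricolinostat), an inhibitor of the deacetylase HDAC6, for 3, 6 or 12 h. The paper on these data describes newer inhibitors as more selective for HDAC6 than this drug, with respect to class I deacetylases. All cells had been plated in 6-well plates and left to attach before treatment, every group was 1 culture of this 1 line on 1 array, and no vehicle-treated sample was analysed here. Each array was hybridised with the sample in Cy5 and, in Cy3, a reference that the labels describe as a pool of all the SUM149 samples. With 1 array per group nothing below has a replicate check or a p-value, and drug, vehicle, time in culture and array cannot be told apart.

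Canonical Wnt signalling begins when a secreted Wnt protein engages a Frizzled receptor and its LRP5 or LRP6 co-receptor. Dishevelled proteins then disable the complex of AXIN, APC and GSK3 that marks β-catenin for destruction, and β-catenin reaches the nucleus to act with TCF/LEF factors. Secreted antagonists act outside the cell, where SFRP1 and WIF1 bind Wnt proteins and DKK1 binds the co-receptors. DACT and NKD proteins bind Dishevelled, and AXIN2, itself a target gene of the pathway, rebuilds the destruction complex. Several of these genes, DACT3 among them, are known from other cancers as inhibitors whose promoters or histone marks are altered and whose expression is lost. The question asked of the arrays was whether the rise of DACT3 under ACY1215 was shared by the other antagonists.

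The 4 arrays lay on 1 slide and had similar signals, with a median Cy5 spot of 36 to 40 scanner units over a local background of 24 and no saturated spot. Areas of damage covered 2.99% of the untreated array, 4.41% of the 3 h array and under 0.1% of the others, and of all the spots of the 10 genes only SFRP1 spots at 3 h lay in one. All 5 epithelial markers (EPCAM, CDH1, KRT8, KRT18, KRT19) and all 5 basal markers (KRT5, KRT6A, KRT14, KRT17, EGFR) were well above background on every array. ESR1 was also well above background on every array, and PGR was on none. The 2 genes together read 151 to 238 Cy5 units over background across the arrays. Summed Cy5 signal over background was 91898 to 117737 units for the epithelial list across the arrays, 585 to 717 for 6 fibroblast markers and 213 to 306 for 3 endothelial markers. Of the fibroblast markers 5 of 6 were well above background in untreated cells and at 3 h, 4 at 6 h and 3 at 12 h. COL3A1 was not above background on any array, and all 3 endothelial markers were on every array. The part of these low signals in the results was not tested.

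On some probes the reference was brighter than every sample. For 1 of the 2 DKK3 probes (A_24_P261417) the dimmest Cy3 value exceeded the brightest Cy5 value by 3.51 on the log2 scale, and for NKD2 by 3.11, although a pool would fall between its parts; dye effects on these probes were not tested. Changes below are differences of log2(Cy5/Cy3) between a treated array and the untreated one, in which a shared reference cancels, and values from the Cy5 channel alone are given for each measured gene of the 10 and for those named pathway genes whose side of 2-fold they change. A gene is called measured where the scanner software called its probe well above background on both arrays, in Cy5 and in Cy3, and 2-fold, or 1 on the log2 scale, was the size used for counting. The standard deviation of such a change among probes printed 9 or more times was 0.17 at 3 h, 0.12 at 6 h and 0.12 at 12 h. For the few dim probes among them (4 to 6 probes with under 50 units over background in untreated cells) it was 0.15 to 0.18. These figures cover the error between spots of the same arrays and not the spread between cultures.

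In untreated cells 9 of the 10 antagonists were well above background by their representative probe, the one with the brightest reference signal, against 64.2% of all 34755 genes. WIF1 was the exception. Their raw signals covered a wide span, from 5595 units for DKK1 and a median of 4698 for SFRP1 down to 32 units for AXIN2, 38 for DKK3 and 41 for DACT3. Levels of different probes are not compared further, since probes differ in brightness at the same RNA amount.

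**Figure D1:**
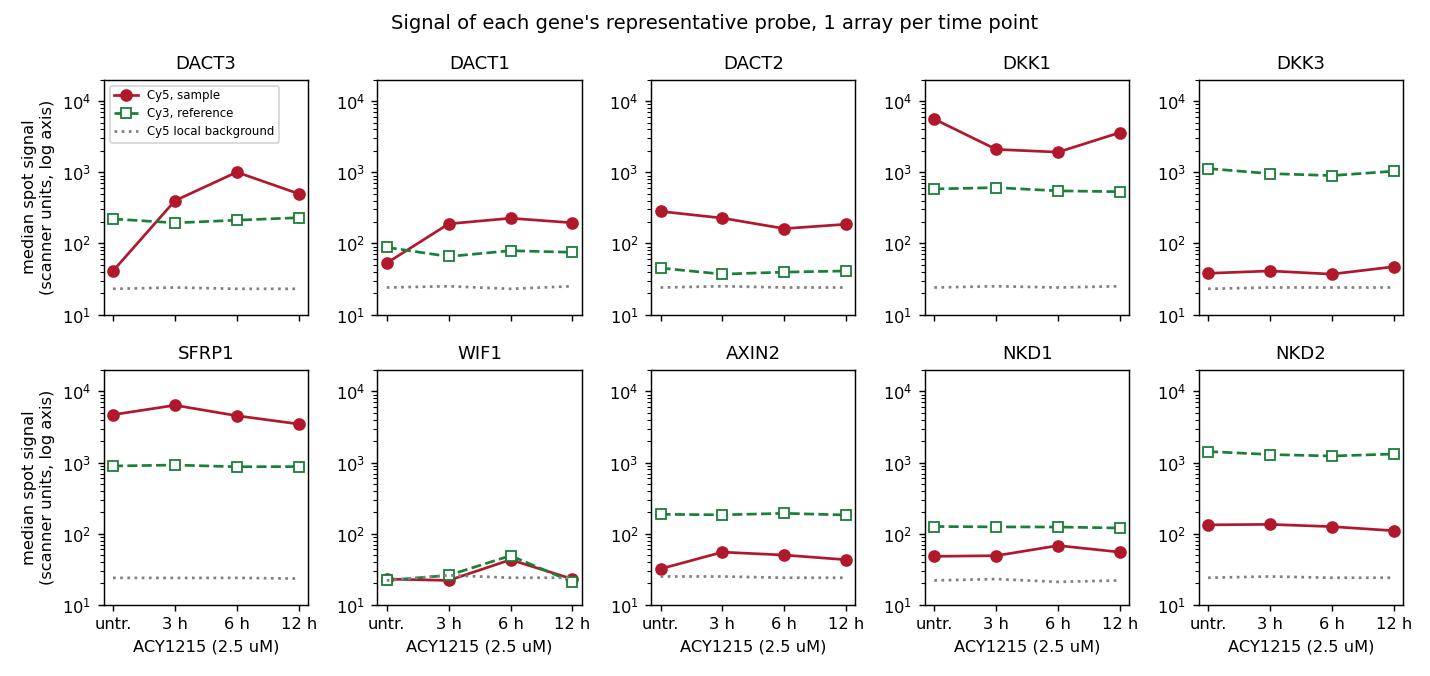
Median spot signal in scanner units on a log axis for the representative probe of each antagonist, on the untreated, 3 h, 6 h and 12 h arrays (1 array each; SFRP1 is the mean of its spots). Red circles are the Cy5 sample, open green squares the Cy3 reference and the dotted line the local Cy5 background. DACT3 climbed from 41 to 1005 units at 6 h while its reference stayed between 194.5 and 230, DKK1 dipped from 5595 to 1921, and WIF1 stayed at background apart from 6 h.

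The clearest movement was in DACT3, a Dishevelled-binding protein of the DACT (Dapper) family. Its Cy5 signal was 41 units in untreated cells, 398 at 3 h, 1005 at 6 h and 499 at 12 h, over a local background of 23 on the untreated array. The Cy3 reference on the same spots read 221, 194.5, 212 and 230 units. All 3 treated arrays were thus far above the untreated one in Cy5, and the reference stayed nearly level. DACT3 was weakly detected in untreated cells, 18 units over background, and not absent. In bulk RNA a change in the number of cells with the transcript and a change in RNA per cell cannot be told apart.

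The log2 change of DACT3 was 2.45 at 3 h, 3.79 at 6 h and 2.92 at 12 h, or 5.47-, 13.9- and 7.58-fold. Among measured genes it held place 7 of 20772 from the top at 3 h, place 1 of 20342 at 6 h and place 3 of 20483 at 12 h. DACT3 heads the list because its rise was already known, so these places describe the gene and test nothing. In the Cy5 channel alone the change was 2.36, 3.87 and 3.03. The peak lay at 6 h, 1.34 above the 3 h value, and the 12 h value was 0.87 below it, so each step was several times the spot error. The size of the change depended on the processing, and over the processing settings tried it ran from 2.36 to 4.15 at 3 h, 3.79 to 5.62 at 6 h and 2.85 to 4.71 at 12 h, with the 6 h value always the highest of the 3 within a setting.

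RefSeq (GRCh38.p14) lists more than 1 start for DACT3 and for DACT1, and their start regions are printed because these are the antagonists that rose together. Each window holds 300 bases, 250 before the start and 50 after it, read 5′ to 3′ on the gene's strand, with CpG dinucleotides in capitals. The window of the first DACT3 start, chr19:46661133-46661432 on the minus strand, holds 33 CpG at 69.7% GC, and that of the second, chr19:46654669-46654968 on the minus strand, holds 8 CpG. The DACT1 window with the most CpG, chr14:58637712-58638011 on the plus strand, holds 44 at 78.3% GC.
DACT3, first start: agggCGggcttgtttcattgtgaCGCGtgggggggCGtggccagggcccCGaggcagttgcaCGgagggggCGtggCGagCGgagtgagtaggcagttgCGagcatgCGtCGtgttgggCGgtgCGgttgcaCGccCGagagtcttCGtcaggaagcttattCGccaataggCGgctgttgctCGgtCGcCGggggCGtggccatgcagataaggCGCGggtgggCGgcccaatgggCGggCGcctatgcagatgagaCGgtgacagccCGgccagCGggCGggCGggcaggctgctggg
DACT3, second start: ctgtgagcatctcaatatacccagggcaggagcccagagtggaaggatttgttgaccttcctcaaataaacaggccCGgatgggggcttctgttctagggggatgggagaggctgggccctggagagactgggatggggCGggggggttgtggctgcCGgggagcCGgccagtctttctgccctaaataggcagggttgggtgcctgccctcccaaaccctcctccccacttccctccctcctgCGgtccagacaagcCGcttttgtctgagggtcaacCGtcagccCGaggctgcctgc
DACT1: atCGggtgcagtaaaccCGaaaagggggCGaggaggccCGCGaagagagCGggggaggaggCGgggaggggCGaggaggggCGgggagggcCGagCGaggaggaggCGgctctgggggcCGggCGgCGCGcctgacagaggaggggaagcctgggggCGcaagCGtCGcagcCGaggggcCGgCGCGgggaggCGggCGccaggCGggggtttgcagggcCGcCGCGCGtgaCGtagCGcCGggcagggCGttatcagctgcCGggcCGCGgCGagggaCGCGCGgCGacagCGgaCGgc

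Across all 35116 windows of 27305 genes the median was 14 CpG and 58.7% GC, and 84.4% of windows did not exceed the CpG-rich DACT3 window in CpG while 96.5% did not exceed that of DACT1. The other DACT1 windows hold 27 and 3 CpG. CpG-rich starts were found among the antagonists that did not rise as well, with 29 CpG for DACT2, 29 for WIF1 and 35 for NKD2, so richness in CpG was not particular to the pair that rose. Windows were held for 6 of the 10 genes and none was held for DKK3, SFRP1, AXIN2 and NKD1. The arrays measured no methylation or histone mark.

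The antisense gene DACT3-AS1, on the opposite strand, is listed with 2 starts. One lies 296 bases from the first DACT3 start, with windows that overlap by 205 bases, and the window of the other holds 4 CpG. Its probes, matched by RefSeq transcript, read 21 to 26 Cy5 units on the 4 arrays and were not well above background on any of them, in either channel. Its spots lay in a damaged area at 3 h. The rise of DACT3 was therefore not accompanied by a detectable signal from the antisense gene at 6 or 12 h.

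DACT1, the relative of DACT3 best known as a Dishevelled antagonist, moved the same way at lower amplitude. Its Cy5 signal was 53 units in untreated cells and 188.5, 226 and 195 at 3, 6 and 12 h, against Cy3 signals of 88, 65.5, 79 and 75. The untreated array was the lowest and the treated arrays lay close together. The log2 change was 1.49, 1.76 and 1.72, or 2.82-, 3.39- and 3.29-fold, and 1.23, 1.67 and 1.56 in the Cy5 channel alone. It stood at place 59, 51 and 46 from the top. Unlike DACT3, DACT1 was level from 6 to 12 h, with a step of −0.04 that is within the spot error.

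DACT2, the third member of the family, did not share the rise. Its representative probe (A_24_P289260) read 282, 227, 161.5 and 186 Cy5 units from untreated to 12 h, with the untreated array the highest. The log2 change was −0.20, −0.48 and −0.23, and −0.40, −0.61 and −0.34 in the Cy5 channel alone, and none reached 2-fold. At 12 h it was −0.41 with median centring, where the median of all genes was −0.16, and 0.01 with the scanner software's processed signals. The second DACT2 probe (A_33_P3248429) stayed at 21 to 22 units and was not above background on any array.

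**Figure D2:**
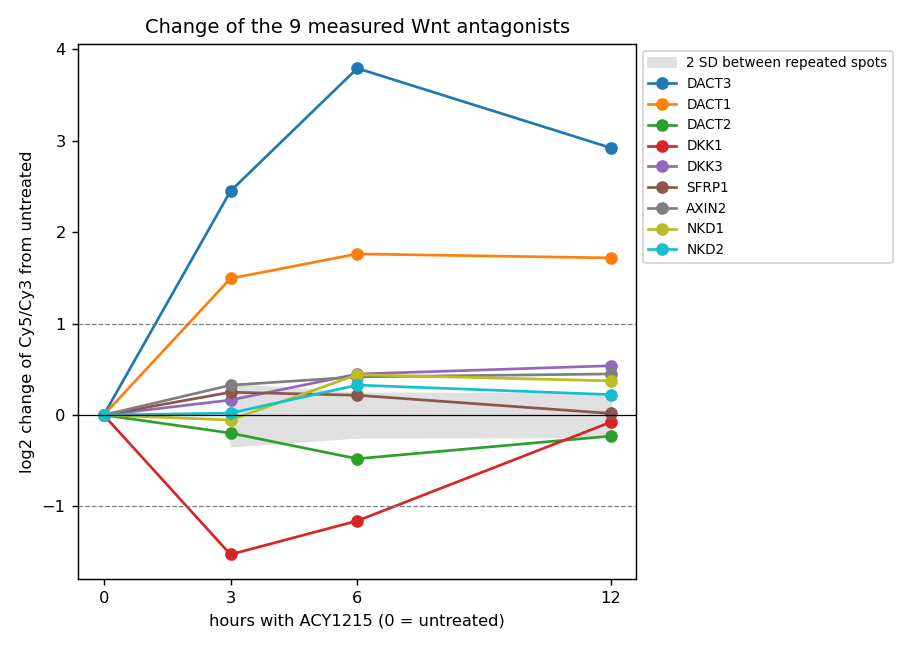
Log2 change of Cy5/Cy3 from untreated cells against hours with ACY1215 for the 9 measured antagonists, 1 array per time point. The grey band is 2 SD of the change among probes printed 9 or more times, and dashed lines mark 2-fold. DACT3 peaked at 3.79 at 6 h, DACT1 levelled at 1.72 to 1.76, DKK1 dropped to −1.53 and came back to −0.08, and the other 6 stayed inside 2-fold.

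Among the secreted antagonists DKK1, which blocks the LRP5/6 co-receptors and is itself induced by Wnt signalling, went the other way. Its Cy5 signal was 5595 units in untreated cells, 2098 at 3 h, 1921 at 6 h and 3618 at 12 h, while Cy3 stayed between 533.5 and 609. The 3 h and 6 h arrays were low and the 12 h array lay between them and the untreated one. The log2 change was −1.53 at 3 h and −1.16 at 6 h, 2.88- and 2.23-fold lower, and −0.08 at 12 h. In the Cy5 channel alone it was −1.51, −1.32 and −0.28. DKK1 held place 15 from the bottom at 3 h and place 107 at 6 h. From 6 to 12 h it recovered by 1.08 on the log2 scale, when DACT3 lost 0.87.

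The DKK1 start region is shown because DKK1 is the antagonist that fell, and the letters CTTTGA, the core that TCF/LEF factors recognise, are in capitals where they occur on either strand. The RefSeq window (GRCh38.p14, chr10:52314031-52314330, plus strand) holds 2 matches, 1 on each strand, and 20 CpG.
DKK1: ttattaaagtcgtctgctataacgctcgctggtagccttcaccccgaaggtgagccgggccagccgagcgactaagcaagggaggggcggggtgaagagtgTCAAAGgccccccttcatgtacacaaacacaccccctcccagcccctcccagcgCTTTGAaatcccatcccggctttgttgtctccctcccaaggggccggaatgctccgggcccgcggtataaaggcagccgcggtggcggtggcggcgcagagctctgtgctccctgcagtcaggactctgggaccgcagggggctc

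Of all windows 12.9% hold these letters, so a match alone is not rare, and it describes the sequence without showing that a factor was bound. Neither DACT3 window holds them, and of the DACT1 windows the one with 3 CpG holds 1 match.

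SFRP1, which binds Wnt proteins and is often lost in breast cancer, was strongly present in SUM149 cells, and its probe is printed 10 times on each array. Its Cy5 spots read 3882 to 5505 units (median 4698) in untreated cells and 5342 to 7537 (median 6283) at 3 h, where 1 spot in a damaged area was set aside. At 6 h they read 3692 to 5278 (median 4545), and at 12 h 2883 to 4082 (median 3546). Matched spot by spot, the log2 change was 0.26 ± 0.07 (SD over 9 spots) at 3 h, 0.22 ± 0.07 (SD over 10 spots) at 6 h and 0.02 ± 0.07 (SD over 10 spots) at 12 h. It was above 0 at 9 of 9 spots, 10 of 10 and 6 of 10. The spots share their arrays, so this spread is that of printing and hybridisation. In the Cy5 channel alone the change was 0.34, 0.18 and −0.09. The small 6 h rise depended on the scaling, being 0.02 with median centring, and the 12 h value was then −0.34. With that centring the median of all measured genes was −0.08 at 6 h and −0.16 at 12 h.

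DKK3, a divergent Dickkopf relative, was dim in the sample channel. Its representative probe read 38, 41, 37 and 47 Cy5 units from untreated to 12 h against 1127, 958, 899 and 1035 in Cy3. The log2 change was 0.16, 0.45 and 0.54, but in the Cy5 channel alone, which was scaled separately, only 0.00, −0.04 and 0.22. Within the reported processing log2 Cy3 was 10.26, 10.07, 9.89 and 10.06 from untreated to 12 h, and log2 Cy5 6.05, 6.02, 6.13 and 6.39. Much of the change at 3 h and 6 h thus lay in the reference, and at 12 h Cy5 rose as well. The other DKK3 probe (A_33_P3261293) gave 0.03, 0.19 and 0.07. DKK3 did not reach 2-fold at any time except 1.01 at 12 h with the scanner software's processed signals.

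WIF1, a secreted Wnt-binding protein often silenced in tumours, read 23, 22, 43 and 23 Cy5 units on the untreated, 3 h, 6 h and 12 h arrays, and was well above background only at 6 h. The Cy3 reference of the same spot was 22, 26, 49 and 21 units, so the 6 h array was high in both channels. The Cy5 signal at 6 h was at least 0.41 higher on the log2 scale than the untreated bound, under 2-fold, and log2(Cy5/Cy3) was −0.09 at 6 h and 0.00 in untreated cells. Of the 12441 genes not above background in untreated cells, 12.1% were above it at 3 h, 7.48% at 6 h and 7.81% at 12 h.

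None of the feedback inhibitors passed 2-fold in the reported processing. AXIN2 gave 32, 55, 50 and 43 Cy5 units on its representative probe (A_23_P148015), over a background of 25 units on the untreated array, against a level Cy3 of 183 to 193. Its log2 change was 0.33, 0.42 and 0.45, and 0.39, 0.38 and 0.30 in the Cy5 channel alone. The spot is so dim in untreated cells that a smaller offset turned these into 1.07, 1.18 and 1.11, and the scanner software's signals into 1.72, 1.64 and 1.58. The second AXIN2 probe (A_24_P298027), with 33, 36.5, 34 and 29 units, gave −0.16, 0.01 and −0.05. The 2 probes thus disagree, and a rise of AXIN2 rests on 1 dim spot and on the background correction.

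NKD1, a Naked cuticle homologue that binds Dishevelled, read 48, 49, 68 and 55 Cy5 units and changed by −0.05, 0.44 and 0.37 on the log2 scale, and by −0.04, 0.36 and 0.20 in the Cy5 channel alone. NKD2, its relative, read 133, 135, 125.5 and 110 Cy5 units and changed by 0.02, 0.33 and 0.22. In the Cy5 channel alone NKD2 gave −0.08, 0.01 and −0.07, with Cy3 between 1235 and 1428, so its small change was in the reference. Neither reached 2-fold at any time.

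Read as a group, 2 of the 9 measured antagonists were at least 2-fold higher at 3 h (1.71% of all measured genes), 2 at 6 h (2.82%) and 2 at 12 h (2.35%), and in each case these were DACT3 and DACT1. At least 2-fold lower were 1 at 3 h (0.376%), 1 at 6 h (0.929%) and 0 at 12 h (1.11%), the 1 being DKK1. The genes were picked with these contrasts known, so nothing is read from the excess over the background shares. The median change of the 9 was 0.16, 0.42 and 0.37, beside 0.01, 0.02 and 0.01 over all measured genes, and 6, 7 and 7 of the 9 were above 0, beside 51.4%, 52.8% and 52.6%. In the Cy5 channel alone the median was 0.00, 0.18 and 0.20, and fewer of the 9 were above 0 at each time. With median centring of each array the median of all genes moved to −0.16 at 12 h, and the 12 h genes past 2-fold went from 482 up and 228 down to 263 up and 705 down (at 6 h, from 573 and 189 to 430 and 405). Relative to that shifted median the antagonists' own 12 h median was then 0.39, against 0.36 without the centring.

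**Figure D3:**
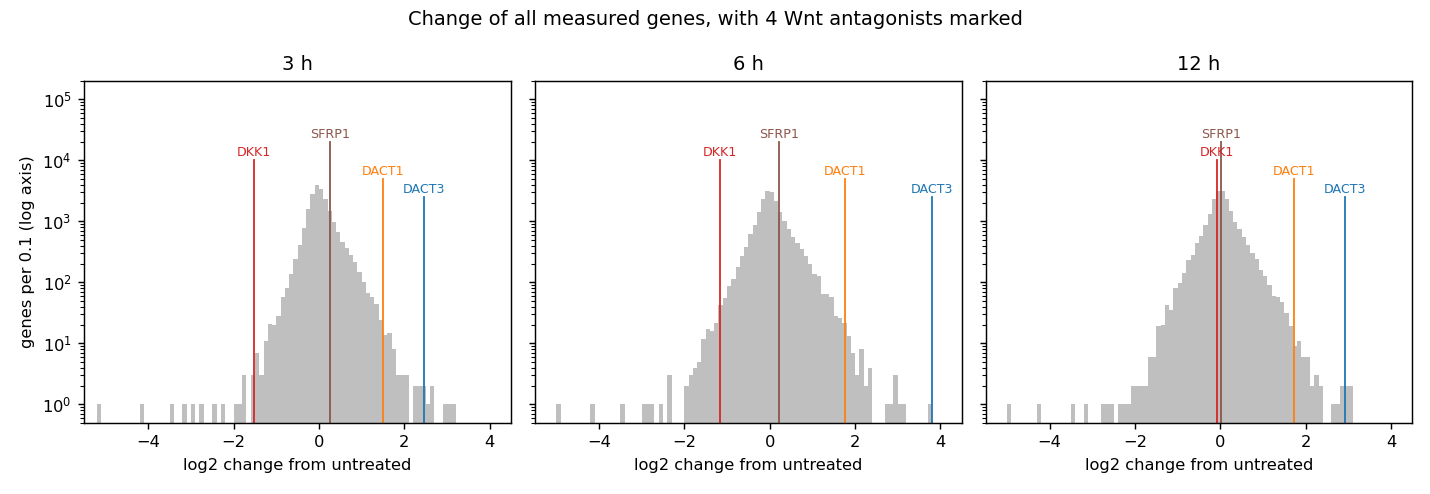
Number of measured genes per 0.1 of log2 change (log axis) at 3, 6 and 12 h against untreated, in grey, with the changes of DACT3, DACT1, DKK1 and SFRP1 as coloured lines whose heights only separate the labels. DACT3 lay near the upper edge at every time and was the highest gene at 6 h (3.79), DACT1 lay in the upper tail, and DKK1 moved from the lower tail (−1.53) back into the centre (−0.08).

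A wider list of Wnt inhibitors held 38 genes together with the 10, of which 28 were above background in untreated cells and 10 were not. Of these 10, only APC2 at all 3 times, WIF1 at 6 h and SFRP2 at 12 h came above background, and none of them reached 2-fold over its bound. APC2 read 28.5 Cy5 units in untreated cells and 32 to 35.5 in treated cells, and SFRP2 read 25.5 and, at 12 h, 34. For comparison, 0.0965% of genes not above background in untreated cells came above it with a bound of 2-fold or more at 3 h, 0.667% at 6 h and 0.313% at 12 h. DKK2, DKK4, SFRP4, SFRP5, SOSTDC1, CER1 and APCDD1 stayed at background at every time.

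The 12 other secreted antagonists included 4 measured genes, none of which passed 2-fold in the reported processing, and their median change at 12 h was 0.06. DRAXIN, an axon guidance factor that binds LRP6, gave 0.05, 0.57 and 0.15 at 3, 6 and 12 h, and passed 2-fold at 6 h in the Cy5 channel alone (55 units untreated, 138 at 6 h). FRZB, a Frizzled-related Wnt-binding protein, gave 0.11, 0.15 and 0.08. NOTUM, an enzyme that removes the lipid of Wnt proteins, gave −0.55, −0.21 and −0.21 on its representative probe.

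Of 15 measured intracellular or membrane inhibitors, 0 were up 2-fold at 3 h, 1 at 6 h and 1 at 12 h, and 1 was down at 12 h. Their median was 0.32, 0.34 and 0.36, above that of all genes, and at 12 h 0.25 above it with median centring. In the Cy5 channel alone their median was 0.05, 0.18 and 0.34. CTNNBIP1, which keeps β-catenin from TCF factors, rose by 0.43, 1.18 and 1.36 with Cy5 signals of 451, 734.5, 865 and 831, and its second probe gave 0.27, 0.62 and 0.78. TLE2, a Groucho corepressor of TCF factors, gave 0.13, 0.64 and 0.81. PRICKLE1, which acts on Dishevelled in the polarity branch, fell by 0.45, 0.78 and 1.03 with Cy5 signals of 1144, 885.5, 529 and 414. ZNRF3, a ligase that removes Frizzled receptors, gave −0.33, −0.44 and −0.41 on 1 probe and 0.24, 0.44 and 0.28 on the other.

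**Figure D4:**
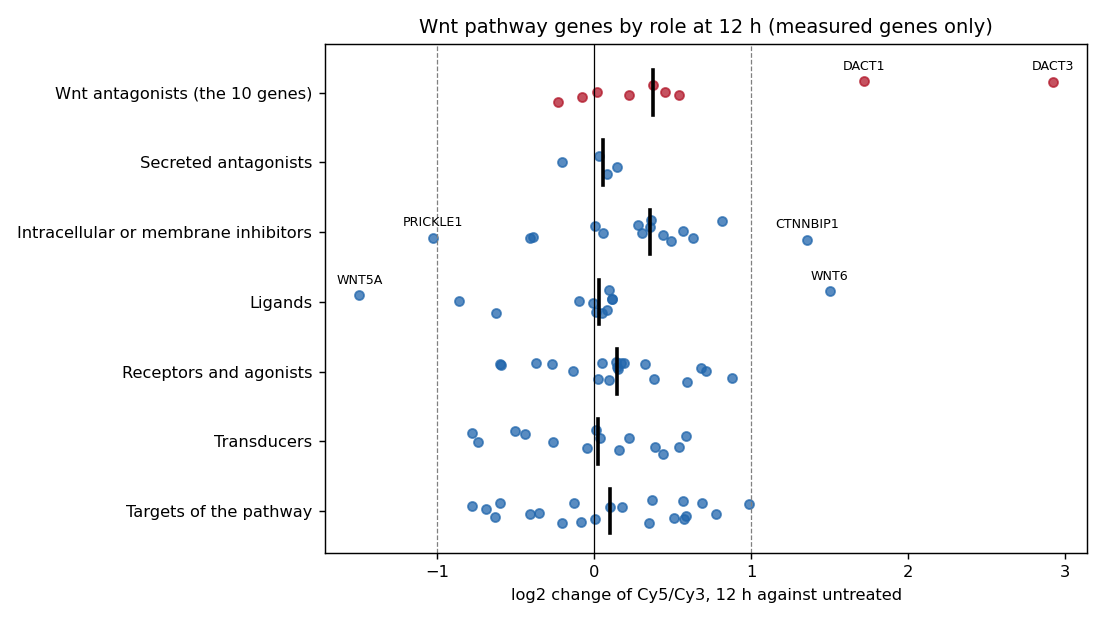
Log2 change at 12 h against untreated for the measured Wnt pathway genes, by role, with the 9 measured antagonists in red and the median of each list as a black bar. Each list has 1 point per gene, and a gene in more than 1 list is plotted in each. Dashed lines mark 2-fold and genes past it are named. DACT3 (2.92) and DACT1 (1.72) lay above every other gene plotted, and WNT5A (−1.49) lay below all others.

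The ligands moved in both directions. Of 12 measured at 12 h, 1 was up and 1 down 2-fold (1 and 2 of 11 at 6 h, 0 and 0 of 11 at 3 h), and the median was 0.03. WNT6 rose 1.54-, 2.28- and 2.83-fold, with Cy5 signals of 126, 247, 351 and 356.5. WNT5A, the main ligand of the β-catenin-independent branch, fell by 0.89, 1.46 and 1.49, with Cy5 signals of 1850, 1006.5, 509.5 and 416.5. WNT3, a canonical ligand, fell by 0.83, 1.05 and 0.86, and its Cy5 change at 12 h was −1.21. WNT5B gave 0.19, 0.12 and 0.12.

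Of 19 measured receptors and agonists, 2 were up 2-fold at 3 h, 2 at 6 h and 0 at 12 h, and 0 were down. These were FZD4, with 1.28, 1.34 and 0.88, and FZD7, with 1.01, 1.04 and 0.71, the latter with its untreated spot in a damaged area and changes of 0.83, 0.79 and 0.53 in the Cy5 channel alone. FZD4 read 583, 1626, 1314 and 857.5 Cy5 units, so the 3 treated arrays were all above the untreated one, least so at 12 h. FZD8 gave −0.82, −0.82 and −0.60, and the co-receptor LRP5 −0.39, −0.64 and −0.60. The list's median was 0.27, 0.24 and 0.14 at 3, 6 and 12 h, beside 0.01, 0.02 and 0.01 over all measured genes. In the Cy5 channel alone it was 0.17, 0.16 and 0.12. With median centring it was −0.09 at 12 h, which was 0.07 above the median of all genes.

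None of the 14 transducers passed 2-fold in the reported processing, and their median at 12 h was 0.02. With median centring 2 were down 2-fold at 12 h, beside 3.44% of all measured genes. The median of the transducers was then −0.23, beside −0.16 over all measured genes. TCF7 gave 0.59 and DVL2, a Dishevelled, 0.54 at 12 h. LEF1 gave −0.78, or −1.17 in the Cy5 channel alone, and the coactivator CREBBP −0.74. Of 21 measured target genes 1 was up at 3 h, 1 up and 1 down at 6 h and 0 at 12 h, with a median of 0.10 at 12 h that was −0.04 with median centring. The targets lay 0.12 above the median of all genes with that centring, against 0.08 without it. JUN rose by 1.08, 1.05 and 0.99, and its Cy5 change at 3 h was 0.96. SOX9 gave 0.40, 0.56 and 0.78, and CCND1, which encodes cyclin D1, −0.47, −0.82 and −0.69. The target past 2-fold downward at 6 h was MYC, named after its values were seen, with −0.90, −1.08 and −0.35 (−1.06 at 3 h in Cy5 alone), a dip and return in the same arrays as that of DKK1.

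The genes whose 3 changes lay closest to those of DACT3 were not Wnt antagonists. Likeness was the Euclidean distance over the changes at 3, 6 and 12 h among 18669 other genes above background on all arrays and outside damaged areas, in log2 units, where the DACT3 changes themselves have a length of 5.38. The nearest was LINC00087, a non-coding RNA, at 0.73 (changes of 2.59, 3.10 and 2.75). GRHL1, an epithelial transcription factor, followed at 0.99 (2.27, 2.85 and 2.69), then PRKRIP1 at 1.09, TUFT1 at 1.20 and CYR61, a matricellular protein gene, at 1.22 (1.55, 2.97 and 2.90). Probes of the same gene disagreed for LINC00087 (1.51 and −0.49 at 12 h on its other probes), GRHL1 (0.67) and PRKRIP1 (0.11). DACT1 came at place 27 with a distance of 2.55, followed among the antagonists by AXIN2 at place 2394 and DKK3 at place 2428. DKK1 was near the far end, at place 18566. The distance follows the size of the rise, so strong risers lie near DACT3 and a gene that fell lies far by construction. SFRP1, with spots in a damaged area at 3 h, and WIF1 were not compared.

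**Figure D5:**
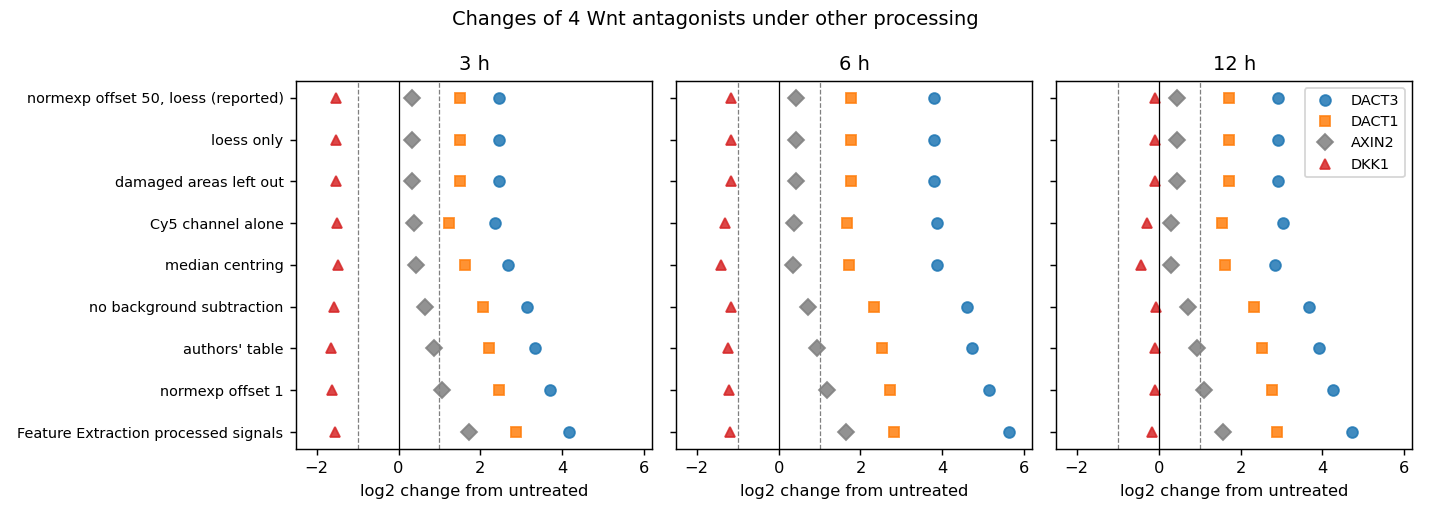
Log2 change from untreated at 3, 6 and 12 h for DACT3, DACT1, AXIN2 and DKK1 (columns of symbols) under the reported processing (top row) and 8 alternatives. The rows for loess only and for damaged areas left out repeat the reported values. Dashed lines mark 2-fold. DACT3 and DACT1 lay beyond 2-fold in every row (DACT3 from 2.36 to 5.62, DACT1 from 1.23 to 2.89), DKK1 kept its 3 h and 6 h fall, and AXIN2 passed 2-fold only in the 2 lowest rows.

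DACT1 stayed past 2-fold in every setting (1.23 to 2.87 at 3 h, 1.67 to 2.82 at 6 h, 1.56 to 2.89 at 12 h), and DKK1 at 3 h (−1.65 to −1.48) and 6 h (−1.41 to −1.16). At 12 h DKK1 ran from −0.44 with median centring, where the median of all genes was −0.16, to −0.07 without background subtraction. DACT3, DACT1, NKD1, NKD2, DKK1, WIF1 and the bright probes of DACT2 and DKK3 each rest on 1 spot per array.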

How the data were processed

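Total RNA of SUM149 cells was measured on 4 two-colour Agilent arrays (sample Cy5, reference Cy3), designed on hg19 and read by the authors with Feature Extraction 12.0.1.1. The deposited spot intensity values (median signal and background) were used here, and the deposited log10 ratio and the authors' annotated table of normalized log2 ratios, whose normalization is not given in the sources used here, served as alternatives. The authors' table, matched by row and column, also gave the symbols. limma 3.58.1 in R 4.3.3 applied normexp (offset 50), loess within arrays and Aquantile. Outlier-flagged and control spots were set aside, and spots of a probe were averaged. A gene is represented by the probe with the brightest mean reference. Damaged areas are windows of 13 rows by 7 columns in which at least 10% of spots had Cy3 over 2-fold from the 4-array median or an outlier flag. For a probe above background on treated arrays only, the bound compares its Cy5 value with the higher of the untreated floor and its own signal.

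The 10 genes and the pathway and marker lists were chosen with earlier results of these data known. The target list shares LGR5, TCF7, LEF1, RNF43, ZNRF3 and NOTUM with other pathway lists, so their counts and medians are not independent. Named were every probe of the 10, at most the 2 largest rises and falls at 12 h per list, and the 5 genes nearest DACT3. RefSeq promoter windows came from a table on GRCh38.p14; the builds differ, so no array coordinate is given. One marker list is not reported here. The number of arrays limits the precision. Scripts were tested on simulated data.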

Additional observations from a re-analysis of the deposited data

Results flagged for a closer look

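For DKK3 the dimmest of the 4 Cy3 reference values exceeded the brightest of the 4 Cy5 sample values by 3.51 on the log2 scale (probe A_24_P261417), and for NKD2 by 3.11. Both stood out because the reference is labelled as a pool of these samples. The gap at DKK3 belongs to this probe: the other DKK3 probe (A_33_P3261293) read 89 to 103.5 units in Cy3 and 56 to 63 in Cy5. Neither dye effects on these probes nor the make-up of the reference was tested.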

How the results depend on the processing

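No value changed sign past 2-fold under any setting tried. The change of DACT3 was larger under several settings: without background subtraction it was 3.15, 4.60 and 3.68 at 3, 6 and 12 h, with an offset of 1 it was 3.69, 5.15 and 4.26, with the Feature Extraction processed signals 4.15, 5.62 and 4.71, and in the table of the authors it was 3.33, 4.71 and 3.92. With median centring it was 2.69 at 3 h. At a 4-fold threshold 1 antagonist was up at 3 h, 1 at 6 h and 1 at 12 h (DACT3) and 0 were down at 3 h and 0 at 6 h. The Feature Extraction signals put 4 up at 12 h, AXIN2 and DKK3 besides DACT3 and DACT1. The median of the measured antagonists at 6 h was 0.29 with median centring, 0.18 with Cy5 alone and 0.29 in the authors' table. At 12 h it was 0.54 without background subtraction, 0.67 with an offset of 1, 0.23 with median centring, 0.20 with Cy5 alone, 0.74 with the Feature Extraction signals, 0.59 in the authors' table and 0.22 averaged over all probes. The offset of 1 adds less to a dim spot; otherwise the cause was not tested. Of the other antagonists' changes, 144 moved by less than the spot error and 81 by more. The 144 include loess alone, which leaves the ratios as reported by construction, and leaving out damaged areas, which moved none of these changes. The tally is therefore no measure of stability.

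No paired analysis was possible because each group held 1 array. For the same reason no array was left out. Dim spots (DACT3, DACT1, AXIN2, DKK3 and NKD1 in untreated cells) limit how large a fold is stated.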
